A study of Homo sapiens with 12 samples.

Results

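The 10 genes described here were targets of the transcription factor p53 and genes that hold cells out of the cell cycle: CDKN1A, CDKN2A, CDKN2B, MDM2, GDF15, SESN1, BBC3, TP53I3, TP53INP1 and ZMAT3. They were taken by symbol from a table of 28901 named genes, of which 17173 had at least 10 estimated counts over all libraries. All 10 were among these. The RNA was that of day 14 adipocytes differentiated from ASC52telo hTERT cells, a commercial line of human adipose-derived mesenchymal stem cells immortalized with telomerase. The cells carried a lentiviral vector with the green marker ZsGreen and either a scramble shRNA (scramble control) or an shRNA against the long intergenic noncoding RNA linc-ADAIN (linc-ADAIN KD), and were sorted for ZsGreen before use. Each shRNA was studied without LPS and after LPS, a bacterial cell wall lipid, at 100 ng/mL for 4 h, with 3 libraries in each of the 4 groups and 12 in all. All groups shared the differentiation medium, with insulin, dexamethasone, isobutylmethylxanthine and rosiglitazone for 7 days, and a maintenance medium with insulin and dexamethasone for another 7 days. The cells came from 1 line, and the authors' figure legends give the RNA-seq of KD at day 14 as N = 1 in triplicate. Nothing in the labels states that the replicates of a group were separate cultures. The p-values therefore measure the spread between these libraries, which may be technical, and not between independent experiments.

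In cells without stress, MDM2, a ubiquitin ligase that is itself a p53 target, keeps p53 protein low. After DNA damage and other stress, p53 escapes MDM2 and switches on genes that stop the cell cycle, among them CDKN1A, and genes that promote apoptosis, among them BBC3. CDKN2A and CDKN2B encode inhibitors of the kinases CDK4 and CDK6, which phosphorylate the retinoblastoma protein RB1 before S phase, and are not p53 targets in the usual sense. Adipocytes leave the cell cycle when they differentiate, and p53 is regulated mostly as a protein, and its activity is often read from the mRNA of its targets.

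Library totals on named genes ran from 28.4 to 53.8 M counts, and log2 CPM of libraries within a group correlated at 0.977 to 0.99. The targeted RNA, linc-ADAIN, was not analysed here, so the KD labels were not checked against their target. Over all genes tested, 12.1% rose and 15.1% fell in KD without LPS, and 12.7% rose and 14.2% fell with LPS. Of 12 adipocyte markers, 9 fell in KD without LPS and 10 with LPS, and none rose. Their summed level was 3550 to 4880 CPM (counts per M after scaling by edgeR's TMM method) in scramble control, 4070 to 4800 in scramble control with LPS, 784 to 2090 in KD and 638 to 1360 in KD with LPS. Of the 10 stromal markers tested in each KD comparison, 6 rose and 3 fell, with summed levels of 7330 to 9030, 7170 to 8320, 10800 to 12500 and 12200 to 13800 CPM in the same order of groups. DLK1 was at 0 in every group and PI16 in both KD groups. The 6 macrophage markers summed to 26.2 to 68.9 CPM, with AIF1 and TYROBP at 0 in every group, and the 4 endothelial markers to 6.43 to 27 CPM. CD68 made up most of the macrophage sum, with 50.7 to 56.2 CPM in scramble control, where the sum was 52.8 to 58.7. Of 4 macrophage markers tested, 1 fell in KD without LPS, and with LPS 1 rose and 1 fell. Of 3 endothelial markers tested, 2 fell without LPS and 3 with LPS. The part of these differences in the values that follow was not tested, and in bulk RNA fewer cells of a type and less RNA per cell cannot be told apart.

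Without LPS, linc-ADAIN KD raised 3 of the 10 genes, GDF15, TP53INP1 and CDKN1A, and lowered 1, ZMAT3, at an adjusted p under 0.05 in edgeR's quasi-likelihood test. The other 6 did not pass. Over all genes, 27.2% of 16217 passed the same test in this comparison, 12.1% higher and 15.1% lower. With LPS, KD raised 4, CDKN1A, GDF15, BBC3 and TP53INP1, and lowered 2, ZMAT3 and CDKN2B, where 26.9% of 15981 genes passed (12.7% higher and 14.2% lower). LPS raised CDKN2B, SESN1 and TP53INP1 in scramble control and in KD, and lowered CDKN1A in scramble control. Thus 4 of the 10 passed for LPS in scramble control, where 14.3% of 15920 genes did (5.9% higher and 8.38% lower), and 3 in KD, where 11.3% of 16169 did (5.32% higher and 6.03% lower). A difference of at least 2-fold past the test was seen in 2 for KD without LPS, GDF15 and TP53INP1 (7.77% of all genes), in 2 with LPS, GDF15 and BBC3 (8.48%), in 2 for LPS in scramble control, CDKN2B and SESN1 (2.68%), and in 1 for LPS in KD, SESN1 (2.25%). In CPM, the groups did not overlap for 4 of the 10 genes for KD without LPS (42.5% of all genes, 20.1% higher and 22.5% lower) and for 6 with LPS (40.6%, with 20% and 20.6%). For LPS they did not overlap for 5 genes in scramble control (32.1%, with 14.3% and 17.8%) and for 5 in KD (27.3%, with 13.6% and 13.7%). The median log2 fold change of the 10 genes was 0.09 and 0.13 for KD without and with LPS, and 0.12 and 0.18 for LPS in scramble control and in KD. Over all genes tested it was 0.02, 0.03, 0.02 and 0.01. Each comparison used its own 6 libraries, and comparisons that share a group (KD without LPS and LPS in scramble control share the scramble libraries, for example) were not independent. An exact permutation test (two-sided) of 3 libraries against 3 cannot give a p below 0.1.

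**Figure D1:**
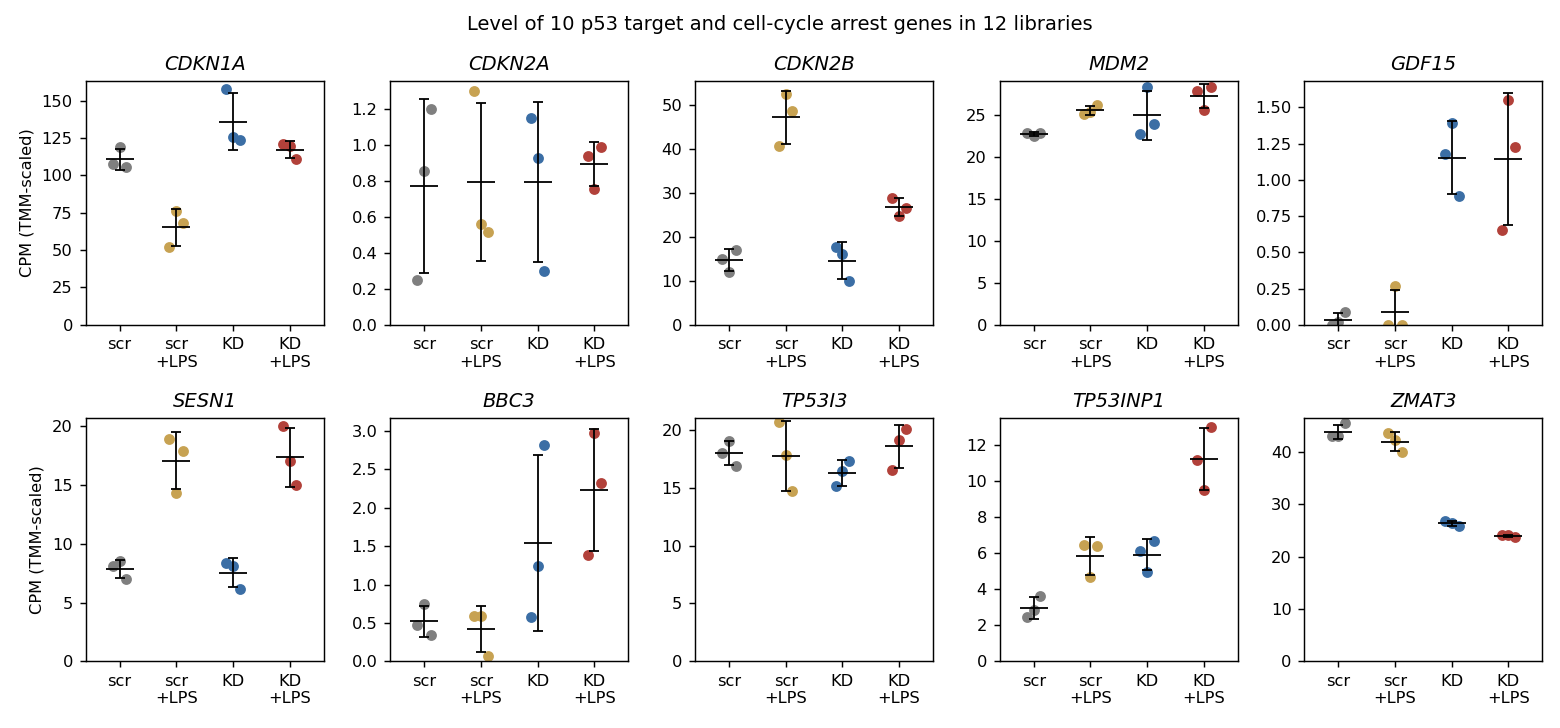
Level of each of the 10 genes in CPM after TMM scaling (vertical axes, linear and starting at 0) in the 4 groups, with 1 point per library and the mean ± SD of 3 libraries as a black bar. CDKN1A was lowest in scramble control with LPS (51.8 to 76 CPM), ZMAT3 was at 23.8 to 26.8 CPM in the KD libraries against 40 to 45.5 in the scramble libraries, and GDF15 reached no more than 0.264 CPM in a scramble library.

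CDKN1A encodes p21, the inhibitor of cyclin-dependent kinases through which p53 stops the cell cycle. It lies on chromosome 6 of GRCh38 between 36676460 and 36687337 on the plus strand. Its level was 108, 119 and 106 CPM in the scramble libraries, 51.8, 76 and 68.2 CPM after LPS, 158, 126 and 124 CPM in KD and 121, 120 and 111 CPM in KD with LPS. The KD libraries lay above the scramble libraries in either LPS state, and the scramble libraries with LPS lay below all others. KD raised it by 0.30 on the log2 scale without LPS (standard error 0.0997, adjusted p = 0.043 from edgeR) and by 0.85 with LPS (0.12, adjusted p = 0.00012). LPS lowered it in scramble control (log2 fold change -0.75, standard error 0.12, adjusted p = 0.0014). In KD its log2 difference with LPS was -0.21 (95% interval -0.42 to -0.0064, adjusted p = 0.2), and all 3 LPS libraries lay below the 3 without. The difference between both effects, the interaction of KD with LPS on all 12 libraries, was 0.55 (standard error 0.17), with an adjusted p of 0.14 in edgeR. The rise without LPS lost its call when any scramble library or KD replicate 1 was left out, with adjusted p between 0.059 and 0.19.

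The neighbouring CDKN2B and CDKN2A lie on the minus strand of chromosome 9, CDKN2B at 22002903 to 22009305 and CDKN2A at 21967752 to 21995301. CDKN2B encodes the CDK4/6 inhibitor p15INK4b. CDKN2A encodes p16INK4a and, from another first exon, p14ARF, which blocks MDM2, and the table has a single row for both. The counting assigned reads by short words shared with known transcripts, so stretches that genes have in common matter. Of the 4030 words of 31 bases in the GENCODE 44 transcripts of CDKN2A, 606 also occurred in another gene, with 536 in the antisense RNA CDKN2B-AS1 and 70 in CDKN2B. For CDKN2B the shared part was 1.98%. Words were matched on either strand, and CDKN2B-AS1 had no row under its name. How far the sharing affected the counts was not tested.

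LPS raised CDKN2B. It stood at 15.1, 12 and 17.1 CPM in scramble control and 40.7, 52.6 and 48.7 CPM after LPS, and at 17.8, 16.1 and 9.9 CPM in KD and 28.9, 24.8 and 26.7 CPM in KD with LPS. Every LPS library lay above every library of the same shRNA without LPS, and with LPS the KD libraries lay below the scramble libraries. LPS raised it by 1.70 on the log2 scale in scramble control (standard error 0.14, adjusted p = 1.1e-05), 3.24-fold, and by 0.88 in KD (0.18, adjusted p = 0.0044), 1.84-fold. KD lowered it with LPS (log2 fold change -0.82, standard error 0.11, adjusted p = 0.00011). Without LPS the KD difference was -0.01 (95% interval -0.46 to 0.43, adjusted p = 0.98), with overlapping groups. The interaction was -0.81 (standard error 0.25, adjusted p = 0.14), and without KD replicate 3, the KD library with the lowest CDKN2B, it was -1.04 with an adjusted p of 0.013. CDKN2A was low throughout, with 12 to 56 counts per library. Its group means lay between 0.769 and 0.89 CPM, and no comparison passed the test. The 95% interval of its KD difference without LPS ran from -1.45 to 1.55 on the log2 scale. Changes of less than about that size were not detectable with this spread between libraries. Over summed counts the ratio of KD to scramble control was 1.05 (95% interval 0.798 to 1.39, counting error only).

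MDM2, on chromosome 12 between 68808177 and 68845544, was at 22.5 to 22.9 CPM in scramble control, 25.1 to 26.2 with LPS, 22.7 to 28.3 in KD and 25.6 to 28.3 in KD with LPS. Scramble control with and without LPS did not overlap. None of its differences passed, with log2 fold changes of 0.14 for KD without LPS (95% interval -0.095 to 0.38, adjusted p = 0.38), 0.09 for KD with LPS (adjusted p = 0.58), 0.18 for LPS in scramble control (adjusted p = 0.22) and 0.12 in KD (adjusted p = 0.61). Of its words of 31 bases, 17.7% were shared with other genes on either strand, more than for the other 9 genes. Those with the most shared words, 729 and 409, had no row under their identifiers. The gene with the symbol CPM, which overlaps MDM2 on the opposite strand, shared 127 words and reached 15675 counts in a library. How far this sharing affected the MDM2 counts was not tested. TP53I3, an oxidoreductase-like p53 target linked to reactive oxygen species, also did not pass in any comparison. It was at 14.7 to 20.7 CPM over all 12 libraries, and its log2 difference without LPS was -0.14 (95% interval -0.38 to 0.10, adjusted p = 0.4).

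GDF15 encodes a secreted stress cytokine of the TGF-beta superfamily that lowers food intake through a receptor in the hindbrain. Scramble control held few reads of it, with 0, 1 and 4 counts without LPS and 0, 8 and 0 counts with LPS. KD libraries held 41, 75 and 36 counts, and KD libraries with LPS 23, 72 and 35. All KD libraries lay above all scramble libraries in the same LPS state. Over the summed counts of each group, the ratio of KD to scramble control, scaled for depth, was 35.8 (95% interval 15 to 112, counting error only) without LPS and 16.5 (8.14 to 39.1) with LPS. By edgeR's test KD raised it by 4.99 on the log2 scale (standard error 0.95, adjusted p = 0.0021) without LPS and 3.77 (1.2, adjusted p = 0.033) with LPS. The call with LPS was lost when scramble replicate 1 or 3 with LPS, or KD replicate 2 or 3 with LPS, was left out, with adjusted p from 0.064 to 0.13. LPS gave no difference past the test, with counts in scramble control at 8 or fewer and a log2 difference of -0.01 in KD (95% interval -1.13 to 1.10, adjusted p = 0.99).

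BBC3 encodes PUMA, a BH3-only protein that starts apoptosis at mitochondria. Its counts were 25, 39 and 16 in scramble control, 23, 18 and 3 with LPS, 20, 67 and 114 in KD and 49, 138 and 66 in KD with LPS. The KD libraries with LPS lay above the scramble libraries with LPS, while without LPS KD replicate 1 lay within the range of scramble control. KD raised it with LPS (log2 fold change 2.43, standard error 0.66, adjusted p = 0.014), a call lost without KD replicate 2 with LPS (adjusted p = 0.079). Without LPS the difference was 1.57 (95% interval 0.25 to 2.89, adjusted p = 0.077). It was past the threshold in DESeq2 (adjusted p = 0.045) and without KD replicate 1 (adjusted p = 0.022). The interaction of 0.86 had a 95% interval of -1.1 to 2.82, so that a difference between both KD effects was not detectable.

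The promoters of GDF15 and BBC3, the genes with the largest KD differences of the 10, were read from RefSeq (GRCh38.p14) as 250 bases before to 50 after the start. They are shown because both genes are on chromosome 19 and each holds a match to 1 of the 4 motifs searched. GDF15 is at chr19:18385908-18386207 on the plus strand, with TATAAA in capitals at position -29 from the start, and BBC3 at chr19:47232618-47232917 on the minus strand, with letters of the AP-1 motif TGANTCA in capitals at position -113:
GDF15: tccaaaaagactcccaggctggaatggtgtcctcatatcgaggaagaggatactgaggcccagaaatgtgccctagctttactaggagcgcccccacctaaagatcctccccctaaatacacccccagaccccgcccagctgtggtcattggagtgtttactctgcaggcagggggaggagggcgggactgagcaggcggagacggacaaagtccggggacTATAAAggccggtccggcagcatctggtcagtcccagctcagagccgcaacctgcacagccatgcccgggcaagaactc
BBC3: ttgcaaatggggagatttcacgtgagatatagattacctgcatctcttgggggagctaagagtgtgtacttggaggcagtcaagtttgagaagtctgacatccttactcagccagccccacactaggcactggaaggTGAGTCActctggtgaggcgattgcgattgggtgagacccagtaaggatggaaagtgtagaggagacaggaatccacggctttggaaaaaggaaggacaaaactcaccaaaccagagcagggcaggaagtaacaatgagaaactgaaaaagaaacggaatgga

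Of the 10 genes, 9 had a promoter in the RefSeq table, and TP53INP1 had none. On both strands, the decamer of the p53 binding consensus was found in 0 of the 9, against 6.63% of 35116 promoters of the same length. TATAAA was found in 1 of 9 (11.5% of all), the cell cycle element TTTGAA in 0 (15.2%) and TGANTCA in 1 (7.71%). p53 sites of several of these genes are known to lie outside this window, in introns or further upstream, so that no match says only that these letters are not in it.

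TP53INP1 encodes a p53-inducible nuclear protein that acts in apoptosis and autophagy. It was at 2.45, 2.83 and 3.61 CPM in scramble control, 6.49, 4.66 and 6.42 CPM with LPS, 6.11, 4.98 and 6.67 CPM in KD and 11.2, 9.53 and 13 CPM in KD with LPS. The lowest libraries were those of scramble control and the highest those of KD with LPS, with the other 2 groups between them and overlapping each other. KD raised it by 1.00 (standard error 0.23, adjusted p = 0.006) without LPS and 0.93 (0.20, adjusted p = 0.0028) with LPS, and LPS raised it by 1.00 (0.23, adjusted p = 0.012) in scramble control and 0.93 (0.19, adjusted p = 0.0046) in KD, all on the log2 scale. The interaction was -0.06 (95% interval -0.68 to 0.56, adjusted p = 1). The call for LPS in scramble control was lost without scramble replicate 2 (adjusted p = 0.057) or scramble replicate 3 with LPS (0.056).

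ZMAT3 encodes a zinc finger protein that binds RNA. It is transcribed from chromosome 3 between 178960121 and 179072215 on the minus strand. Its level was 43.1, 43.1 and 45.5 CPM in scramble control, 43.7, 42.3 and 40 CPM with LPS, 26.8, 26.5 and 25.9 CPM in KD and 24.1, 24.2 and 23.8 CPM in KD with LPS. All 6 KD libraries lay below all 6 scramble libraries. The log2 fold change of KD was -0.73 (standard error 0.084, adjusted p = 5.4e-05) without LPS and -0.81 (0.096, adjusted p = 2.8e-05) with LPS, and these calls kept their side of the threshold with each library left out. LPS gave -0.05 in scramble control (adjusted p = 0.76) and -0.14 in KD (adjusted p = 0.5), where the groups did not overlap.

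SESN1 encodes a sestrin, a p53-induced protein that restrains mTORC1 and oxidative stress. It was at 8.07, 8.5 and 7 CPM in scramble control and 18.9, 14.3 and 17.9 CPM with LPS, and at 8.35, 8.11 and 6.17 CPM in KD and 20, 17 and 15 CPM in KD with LPS. Every LPS library lay above every library without LPS, while KD and scramble libraries overlapped in both LPS states. LPS raised it by 1.13 on the log2 scale in scramble control (standard error 0.14, adjusted p = 0.00027) and by 1.20 in KD (0.17, adjusted p = 0.00024). The KD difference was -0.05 without LPS (95% interval -0.43 to 0.32, adjusted p = 0.86) and 0.02 with LPS (-0.30 to 0.34, adjusted p = 0.94).

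**Figure D2:**
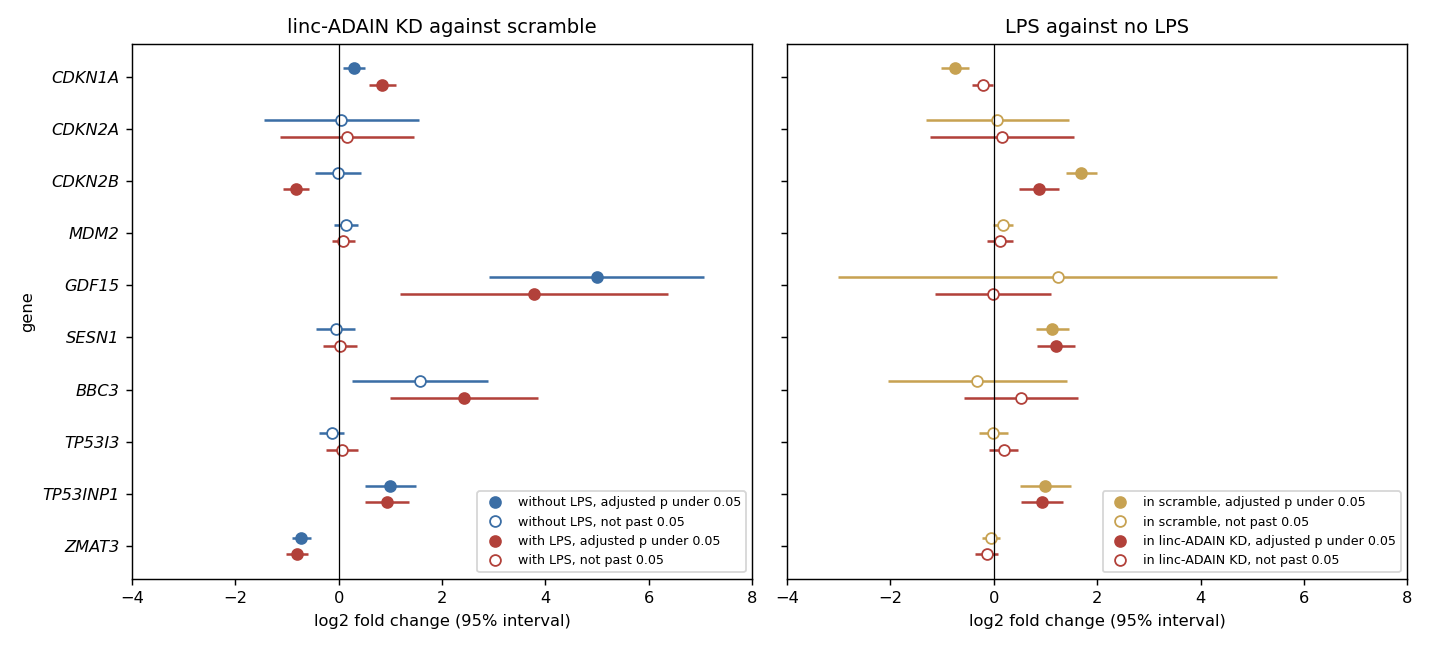
Log2 fold change (horizontal axis) of each of the 10 genes (rows) for KD against scramble, left, and LPS against no LPS, right, with 95% intervals from edgeR as lines and points filled where the adjusted p was under 0.05. ZMAT3 sat below 0 for KD in both LPS states (-0.73 and -0.81), and CDKN2B and SESN1 above 0 for LPS in both shRNA states (1.70 and 0.88, 1.13 and 1.20).

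Relative to the length of each gene's canonical transcript, CDKN1A was the most abundant of the 10 in every group, at 52.4 ± 3.3 CPM per kilobase in scramble control, 30.8 ± 5.86 with LPS, 64.2 ± 8.83 in KD and 55.3 ± 2.71 in KD with LPS (SD, n = 3 libraries). In scramble control TP53I3 followed at 10.9 ± 0.653 CPM per kilobase, then ZMAT3 at 4.91 ± 0.154, CDKN2B at 3.82 ± 0.672, MDM2 at 3.03 ± 0.031 and SESN1 at 1.39 ± 0.136, each outside the range of its neighbours. CDKN2A came next with a range of 0.253 to 1.23, which overlapped those of TP53INP1 (0.437 to 0.644) and BBC3 (0.186 to 0.402), and GDF15 was last with at most 0.0716. After LPS in scramble control, CDKN2B at 12.3 ± 1.58 overlapped TP53I3 at 10.7 ± 1.8. In KD, GDF15 was at 0.958 ± 0.211, overlapping SESN1, TP53INP1, BBC3 and CDKN2A.

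Of 20 genes of p53 regulation, 0 rose and 5 fell in KD without LPS, and 1 rose and 5 fell with LPS, where 12.1% of all genes rose and 15.1% fell without LPS, and 12.7% and 14.2% with LPS. HIPK2, a kinase that phosphorylates p53 (log2 fold change -0.52 without and -0.57 with LPS), USP7, a deubiquitinase of MDM2 and p53 (-0.48 and -0.48), and the acetyltransferase CREBBP (-0.44 and -0.30) were among those that fell in both. MDM4, the partner of MDM2, fell with LPS (-0.57, adjusted p = 0.008), and gave -0.30 without LPS (adjusted p = 0.22). PPM1D, the phosphatase that ends the p53 response, had log2 differences of 0.35 (adjusted p = 0.32) and -0.05 (adjusted p = 0.91). LPS raised 1 and lowered 2 of the 20 in scramble control, where 5.9% of all genes rose and 8.38% fell. In KD it raised 1 and lowered 1, where 5.32% rose and 6.03% fell.

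Of 47 other genes known as p53 targets, 46 were tested without LPS, where KD raised 17 and lowered 7. With LPS KD raised 15 of 47 and lowered 5. These shares of 52.2% and 42.6% stand beside 27.2% and 26.9% over all genes, and the median log2 fold change of the list was 0.14 in both, against 0.02 and 0.03. SESN2, the other stress-induced sestrin, rose from 9.25 ± 0.613 to 33.1 ± 4.79 CPM (log2 fold change 1.84 without and 2.02 with LPS, adjusted p = 8.9e-07 and 2.5e-07), whereas the KD difference of SESN1 did not pass. LIF, a cytokine of the IL-6 family, rose by 1.80 and 2.04, and the lysosomal fucosidase FUCA1 by 1.48 and 2.49. Scramble libraries held few counts of FUCA1, with 21 to 42 without LPS and 8 to 30 with LPS. GADD45A, a growth arrest gene of the DNA damage response, rose by 0.63 and 0.64, and BAX, the pore-forming apoptosis protein, by 0.42 and 0.62. PHLDA3, which opposes AKT signalling, fell from 97.5 ± 11.9 to 49.8 ± 4.31 CPM (-0.97 without and -0.80 with LPS), and CMBL fell as well (-0.70 and -0.96). INPP1, an inositol phosphatase, fell without LPS (-0.55) and gave -0.34 with LPS (adjusted p = 0.084). The death receptor FAS rose with LPS (0.83, adjusted p = 5.2e-05), and its difference without LPS was 0.05 (95% interval -0.12 to 0.23, adjusted p = 0.69). LPS raised 6 of 46 and lowered 6 in scramble control, and raised 9 of 47 and lowered 2 in KD, where 14.3% and 11.3% of all genes passed. SESN2 and LIF are also targets of other stress or inflammatory pathways, and SESN2 is also counted among the targets of ATF4.

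**Figure D3:**
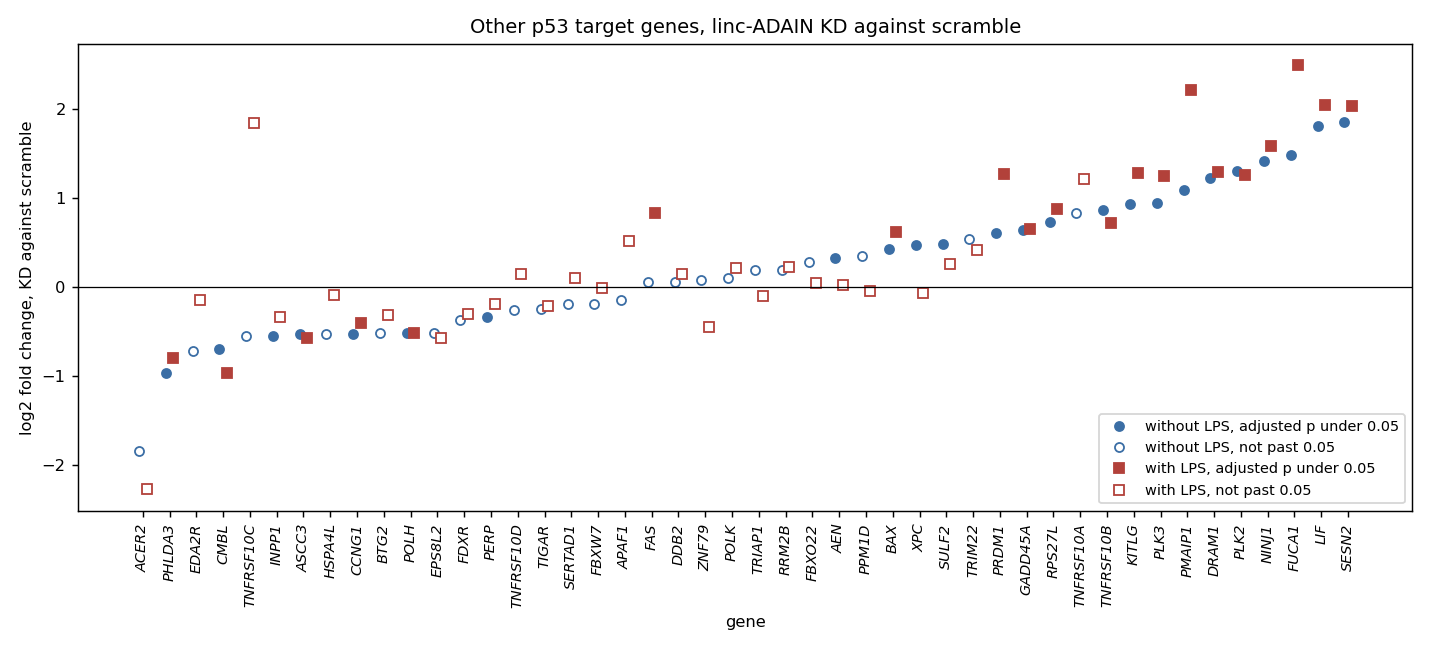
Log2 fold change for KD without LPS and with LPS (vertical axis) of the 46 other p53 targets tested without LPS, 1 position per gene in the order of the values without LPS, filled where the adjusted p was under 0.05 in edgeR. SESN2 (1.84 and 2.02) and LIF (1.80 and 2.04) lie above 0 and PHLDA3 (-0.97 and -0.80) below it in both LPS states.

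Among 7 other CDK inhibitors and pocket proteins, KD lowered 2 and raised none without LPS, and raised 3 and lowered 2 with LPS. These are 28.6% and 71.4% of the 7, beside 27.2% and 26.9% of all genes. The inhibitor CDKN2C (p18) fell from 29.5 ± 1.17 to 18.2 ± 5.22 CPM without LPS (log2 fold change -0.69, adjusted p = 0.01) and from 30.3 ± 2.39 to 16 ± 2.78 CPM with LPS (-0.92, adjusted p = 0.00019), and RB1 fell by 0.66 and 0.41 on the log2 scale. The inhibitor CDKN1B (p27) gave 0.35 without LPS (adjusted p = 0.11) and rose by 0.52 with LPS (adjusted p = 0.028), and CDKN2D (p19) gave 0.46 (adjusted p = 0.47) and rose by 1.42 (adjusted p = 0.014). CDKN1C (p57), with a mean of 27.7 counts per library without LPS, passed in neither. LPS changed none of the 7 in scramble control, with 0 at an unadjusted p under 0.05 and 0 in DESeq2, and raised CDKN1B in KD (0.48, adjusted p = 0.047). Over all genes, 14.3% passed for LPS in scramble control and 11.3% in KD. Of the cyclins, kinases and E2F transcription factors of G1, KD raised 2 of 12 and lowered 1 without LPS, and raised 4 of 13 with LPS. These shares of 25% and 30.8% were near those of all genes, 27.2% and 26.9%. CDK4 (0.38 and 0.61) and the cyclin CCND3 (0.33 and 0.44) rose in both, and E2F3 fell without LPS (-0.31, adjusted p = 0.039).

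Genes of DNA replication and mitosis, which p21 and the pocket proteins hold down in arrested cells, were compared beside these. KD raised 15 of 32 without LPS and 8 with LPS and lowered none, with median log2 fold changes of 0.78 and 0.69 (0.02 and 0.03 over all genes). The share was 46.9% without LPS, where 12.1% of all genes rose and 15.1% fell, and 25% with LPS, where 12.7% rose and 14.2% fell. The summed level of the 32 genes was 216 to 303 CPM in scramble control, 353 to 426 in KD, 232 to 397 in scramble control with LPS and 368 to 410 in KD with LPS. The groups did not overlap without LPS and overlapped with LPS. KIF20A, a mitotic kinesin, rose by 1.67 and 2.17 on the log2 scale, the mitotic kinase PLK1 by 1.36 and 1.21, and the checkpoint kinase BUB1B by 1.64 without LPS (0.70 with LPS, adjusted p = 0.16). MKI67, which marks cycling cells, had log2 differences of 0.76 (adjusted p = 0.12) and 0.79 (adjusted p = 0.11), with 3.07 to 10.8 CPM in the scramble libraries and 8.96 to 13.8 in KD. These counts moved with single libraries. Without LPS the count was 8 without scramble replicate 3 and 9 without KD replicate 3, and among the libraries with LPS it was 22 without scramble replicate 1, 3 without scramble replicate 2 or KD replicate 1, and 2 without scramble replicate 3 or KD replicate 2. LPS changed none of the 32 in scramble control (3 at an unadjusted p under 0.05, 2 in DESeq2) and raised 1 in KD. For LPS, 14.3% of all genes passed in scramble control and 11.3% in KD.

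**Figure D4:**
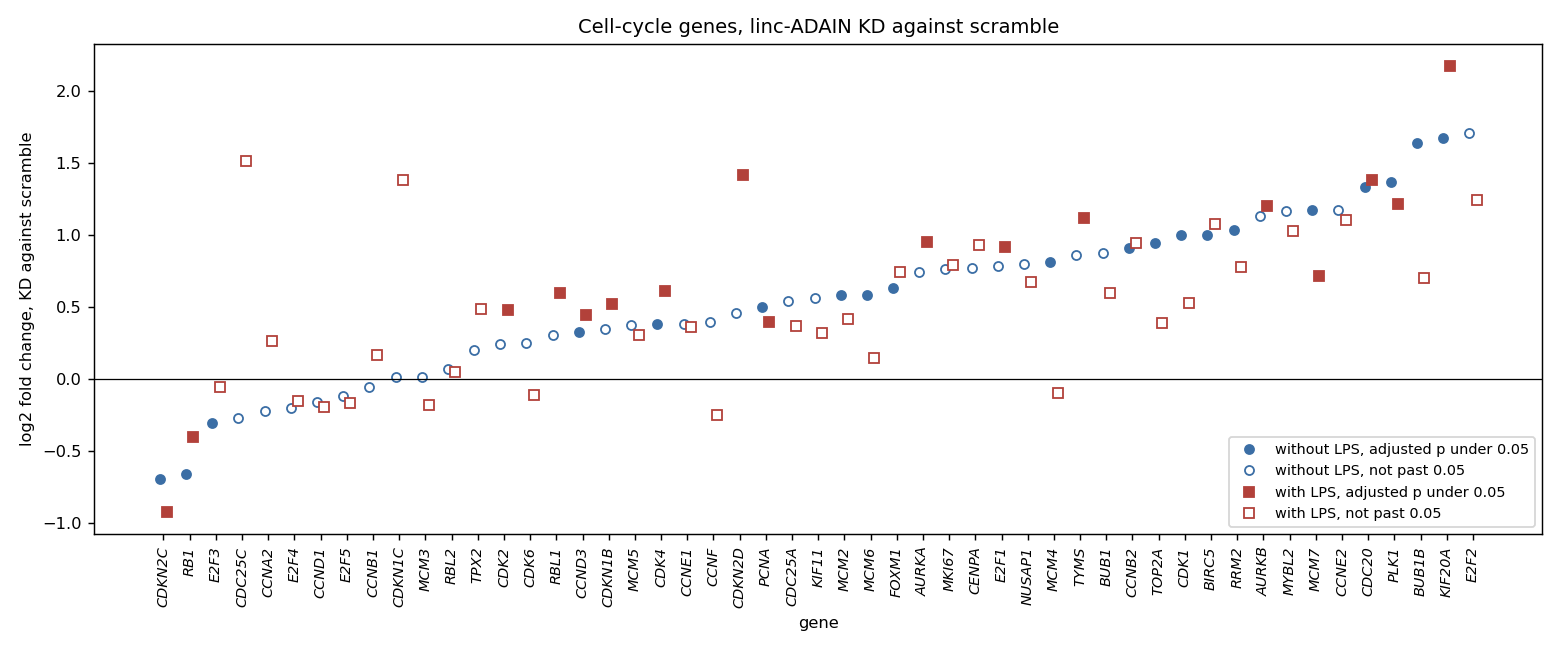
Log2 fold change for KD without LPS and with LPS (vertical axis) of cell-cycle genes tested without LPS. These are the CDK inhibitors and pocket proteins, the G1 cyclins, kinases and E2F factors, and the replication and mitosis genes. There is 1 position per gene in the order of the values without LPS, filled where the adjusted p was under 0.05 in edgeR. Points of the replication and mitosis genes lie mostly above 0 (medians 0.78 and 0.69), and CDKN2C and RB1 lie below (-0.69 and -0.66 without LPS).

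The interaction of KD with LPS passed in 0 of the 10 genes, with 2 (CDKN1A and CDKN2B) at an unadjusted p under 0.05 and 0 in DESeq2, where 1.28% of 17173 genes passed in edgeR (0.943% higher and 0.332% lower). Without the filter on low counts both passed, with adjusted p of 0.033 and 0.023. Along the chromosome, of the 14 tested genes that start within 1 Mb of MDM2, 0 rose and 2 fell in KD without LPS, and of 7 around CDKN2A, 0 rose and 1 fell, where 12.1% of all genes rose and 15.1% fell. With LPS, 2 of 16 rose and 3 fell around MDM2, and 1 of 7 rose and 2 fell around CDKN2A, where 12.7% and 14.2% of all genes did. CDKN2B, itself among the 10 genes, is counted among the 7 neighbours of CDKN2A and is 1 of the 2 that fell with LPS. MTAP is the other, and is the 1 that fell without LPS.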

How the data were processed

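RNA-seq libraries were prepared by the submitters from polyA RNA with a stranded mRNA kit. Per the labels and the methods, the authors used bcl2fastq 2.19 and kallisto 0.44.0 on GRCh38 and deposited estimated counts, added up over the transcripts of a gene name and not normalized for depth or length. The values are whole numbers, and rounding them left them as they were. The annotation release behind the index is not given in the sources used here. A row with no gene name, 0.235% to 0.306% of a library, was left out.

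In R 4.3.3, genes were kept where the fitted libraries together held 10 counts or more, scaled by TMM and tested with edgeR 4.0.16 (quasi-likelihood F test, Benjamini-Hochberg over all genes). Each of 4 comparisons used its 6 libraries, and the interaction all 12. A standard error is the size of the log2 fold change over the square root of F. CPM use TMM factors over 12 libraries. Whether groups overlap was read from these. The authors used DESeq2 1.32.0, and DESeq2 1.42.0 was an alternative, with other scalings, filters, a 2-fold threshold, a joint fit, a replicate block and each library left out. Steps were tested on simulated data. Intervals and floors on summed counts cover counting error only.

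The members and lists were chosen with earlier results of these data known. Named outside the 10 genes are, per list, the 3 genes or fewer that rose most and the 3 or fewer that fell most for KD without LPS (adjusted p under 0.05, mean of at least 50 counts), and 14 genes fixed by name, of which 1 is not reported here. PMAIP1, PRDM1, KAT5 and MTAP, the gene with the symbol CPM, and the markers listed at 0, were named after their values were seen. Gene positions are from GENCODE 44 on GRCh38 and promoters from RefSeq (GRCh38.p14). Amino acid sequences were not used here.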

Additional observations from a re-analysis of the deposited data

Results flagged for a closer look

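In 4 genes of the lists around p53, the effect of linc-ADAIN KD differed between the LPS states by edgeR's interaction test on all 12 libraries, where 1.28% of all genes passed. FAS, the death receptor, had an interaction of 0.79 on the log2 scale (standard error 0.13, adjusted p = 0.0055). It was at 43.1 ± 0.822 CPM in scramble control, 47.7 ± 6.37 with LPS, 44.5 ± 2.01 in KD and 85.2 ± 5.45 in KD with LPS (SD, n = 3), so that the KD libraries with LPS stood above all other libraries. The other 3 were chosen after their values were seen. PMAIP1, which encodes the BH3-only protein NOXA, had an interaction of 1.13 (standard error 0.20, adjusted p = 0.007), with 5.7 ± 0.746, 6.08 ± 0.517, 12.1 ± 0.693 and 28.1 ± 3.15 CPM in the same order of groups. PRDM1, a transcriptional repressor, had an interaction of 0.67 (standard error 0.12, adjusted p = 0.0094), with 65.4 ± 2.4, 71.7 ± 4.61, 98.9 ± 3.82 and 172 ± 21.5 CPM. KAT5, an acetyltransferase of p53, had an interaction of 0.66 (standard error 0.16, adjusted p = 0.044), with 25.4 ± 3.12, 18.5 ± 1.5, 21.5 ± 0.515 and 24.6 ± 1.18 CPM, and was lower with LPS in scramble control (-0.45, adjusted p = 0.022) but not past the test in KD (0.20, adjusted p = 0.32).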

How the results depend on the processing

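Of the 17 fold changes of the 10 genes that passed the test, 13 kept their direction and their side of the threshold under every alternative run, and none reversed. The rise of CDKN1A in KD without LPS was lost in the fit on all 12 libraries (adjusted p = 0.074) and with the replicate block (0.065). The causes were not tested. With at least a 2-fold difference required, 2 of the 10 genes passed for KD without LPS, 2 with LPS, 2 for LPS in scramble control and 1 in KD. Of the other p53 targets 7 and 10 then passed for KD without and with LPS, and of the replication and mitosis genes 6 and 5. Without a filter on low counts, 14 replication and mitosis genes passed for KD with LPS and 2 of the 10 genes for the interaction.

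Leaving out 1 library at a time, the number of the 10 genes that passed was 3 to 4 for KD without LPS, 4 to 6 with LPS, 3 to 4 and 3 to 3 for LPS in scramble control and in KD, and 0 to 1 for the interaction. For replication and mitosis genes it was 8 to 21 without LPS and 2 to 22 with LPS. Fold changes not past the test that reversed without 1 library are given as ranges on the log2 scale. For KD without LPS they were -0.37 to 0.51 for CDKN2A, -0.18 to 0.20 for CDKN2B and -0.14 to 0.073 for SESN1, and for KD with LPS -0.078 to 0.72 for CDKN2A, -0.092 to 0.11 for SESN1 and -0.054 to 0.19 for TP53I3. For LPS in scramble control they were -0.50 to 0.54 for CDKN2A, -0.67 to 0.20 for BBC3 and -0.13 to 0.11 for TP53I3, and for LPS in KD -0.23 to 0.52 for CDKN2A and -0.30 to 0.27 for GDF15. For the interaction they were -0.36 to 0.68 for CDKN2A, -0.11 to 0.043 for MDM2, -2.75 to 3.65 for GDF15, -0.063 to 0.17 for SESN1 and -0.22 to 0.060 for TP53INP1.

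Scaling by library size alone, which moved the median of all genes by 0.105 for KD without LPS, gave 0.094 for CDKN2B and 0.049 for SESN1 there. The share of calls that were higher went from 44.5% to 61.4% for KD without LPS, from 47.2% to 59.2% with LPS and from 46.9% to 35.2% for LPS in KD. Same-numbered libraries of different groups had deviations that correlated at -0.14 to 0.246, with 4 of 18 pairs over 0.1, so that the numbers were not taken to pair the samples. With the replicate block, 3, 6, 4, 3 and 0 of the 10 genes passed in the 5 comparisons. Low counts and the spread between libraries limit CDKN2A, BBC3 and GDF15, whose lowest libraries held 12, 3 and 0 counts.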

Other observations

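The list of genes associated with senescence holds, among others, genes whose loss marks senescent cells, such as LMNB1, and genes whose activity does, such as GLB1. Its counts of rises and falls therefore give no direction for senescence. Of 7 in the table, KD without LPS raised 2 and lowered 4, where 12.1% of all genes rose and 15.1% fell. MTAP, counted above among the neighbours of CDKN2A, is also on this list and was 1 of the 4. Its log2 fold change was -0.35 without LPS (adjusted p = 0.037 from edgeR) and -0.52 with LPS (adjusted p = 0.0012). LMNB1, the nuclear lamin whose loss is a marker of senescent cells, rose by 0.96 on the log2 scale (standard error 0.27, adjusted p = 0.019) without LPS and by 0.92 (0.29, adjusted p = 0.031) with LPS. The chromatin protein HMGB2 rose by 1.01 and 1.35. GLB1, the lysosomal galactosidase behind the senescence stain, fell by 0.60 and 0.73, HMGB1 by 0.55 and 0.54, and HMGA1 by 0.45 and 0.57. With LPS KD raised 3 of the 7 and lowered 4, where 12.7% of all genes rose and 14.2% fell. LPS lowered 2 in scramble control (8.38% of all genes), and raised 1 and lowered 2 in KD (5.32% and 6.03%).

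ATF4 is the transcription factor of the integrated stress response. Of a list of 13 genes, made of ATF4 itself and genes listed as its targets, 10 rose in KD in each LPS state and none fell. The median log2 fold changes were 1.6 and 1.37, against 0.02 and 0.03 over all genes, of which 12.1% and 12.7% rose. CHAC1, a glutathione-degrading enzyme, rose by 4.88 without LPS (standard error 0.67, adjusted p = 0.00019) and 6.10 with LPS. Scramble libraries held only 0 to 19 counts of CHAC1 without LPS and 0 to 5 with LPS, so the size of its rise rests on few reads. DDIT4, an mTORC1 inhibitor, rose by 2.26 and 2.42. VLDLR rose by 1.91 without LPS and gave 0.87 with LPS (adjusted p = 0.18). SESN2 is on this list and on that of the other p53 targets. Of the 10 genes above, CDKN1A, GDF15 and TP53INP1 rose in KD in both LPS states and BBC3 with LPS, and the part of the ATF4 targets in that was not tested. LPS raised 2 of 13 in scramble control and 3 in KD, where 5.9% and 5.32% of all genes rose.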
